A study of Mus musculus with 8 samples.

Results

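Etv1, Etv4 and Etv5 make up the Pea3 subfamily of ETS transcription factors, and their transcripts were followed in dorsal root ganglia (DRG) of E18.5 mouse embryos with or without renewed expression of Dach1. The 3 genes were taken by name from the 55414 genes listed for each library, and they were chosen by the difference between the genotypes, with the lower Etv1 level of the Dach1 libraries known. All 3 passed the filter on low counts that left 17721 genes for testing. The AD1 OE group (n = 4 libraries) had the genotype AdvillinCre/+;Rosa26Dach1/+, in which Cre made from the Advillin gene removes a stop cassette in sensory neurons so that Dach1, a transcriptional cofactor, and EGFP are made from the Rosa26 locus. The Control group (n = 4 libraries) was Advillin+/+;Rosa26Dach1/+, so both groups carried the Rosa26Dach1 allele and only AD1 OE carried Cre. The study placed the renewed Dach1 expression late, after the gene had been restricted to some neurons in the usual way, and the Rosa26Dach1 mice were of mixed C57Bl/6J and CD1 background. The ganglia were sequenced whole, neurons and glia together. The study counts each library as an embryo of its group, and neither it nor the labels name litters.

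Pea3 factors bind DNA sites with a GGAA core and are switched on in target cells by growth factors that act through receptor tyrosine kinases and the Ras-ERK cascade. Muscle-derived NT3 induces Etv1 (also called ER81) in proprioceptive neurons, where the factor is needed for their central axons to reach motor neurons, while Etv4 (Pea3) is known from sensory neurons and GDNF-responsive motor pools, and Etv5 (Erm) from sensory neurons and satellite glia. Capicua (Cic), with its Ataxin-1 partners, represses the Pea3 genes, and the Cop1-Det1 ubiquitin ligase with Trib proteins degrades the proteins.

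Pea3 genes are themselves known to carry ETS sites, so the promoter windows that RefSeq gives for the members were searched for 2 forms of the site, AGGAAGT and CGGAAGT, on both strands. Windows ran from 250 bases before to 50 after each start site on GRCm38.p6, and 2 were found for Etv1 and 2 for Etv5. Etv4 is named only. One window of each gene held AGGAAGT on the gene's own strand and the other held neither form. The stretch around each match is shown with the site in capitals, from chr12:38780067-38780096 on the plus strand and chr16:22438349-22438378 on the minus strand.
Etv1: gcgagttaggaAGGAAGTagtttccctcgg
Etv5: cgacgacacaaAGGAAGTggtttaaactcc
The Etv1 match began at position -4 and the Etv5 match at position 1, counted from the start site. The letters are common: 9.35% of all 32851 promoter windows held AGGAAGT, 6.42% held CGGAAGT and 15.1% held either form. A match is a description of the sequence and not evidence of binding.

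Library totals ran from 22339059 to 44025625 counts. Dach1 (ENSMUSG00000055639) lay between 91.5 and 102.2 in AD1 OE and between 30.2 and 33.7 in Control as CPM (counts over the TMM-scaled library total), higher by 1.56 ± 0.05 (log2, SE) in the quasi-likelihood fit of edgeR (Benjamini-Hochberg adjusted p = 1.77e-08). Avil, from which Cre was made, lay between 449.6 and 478.3 in AD1 OE and between 840.4 and 919.1 CPM in Control. Xist and 4 Y-linked genes showed that AD1 OE replicates 1, 2 and 4 were male and replicate 3 female, and that Control replicates 1, 2 and 3 were female and replicate 4 male. AD1 OE replicate 3, the female, stood apart from its group, differing by 10.6 to 12.2 (chi-square over degrees of freedom) from the other AD1 OE libraries (5.16 to 6.72 among those). It had a first principal component (30.6% of variance) of 5.56 beside -24.7 to -19.6 in the others, and it held the most muscle RNA of the group (Myh8 at 106.6 CPM, others 26.9 to 31.0). Without it the log2 fold change was -0.91 for Etv1, -0.57 for Etv4 and 0.08 for Etv5. In Control, replicate 1 differed by 9.02 to 10.9 from the other libraries (4.34 to 7.72 among those). Control replicate 4, the male, had a first principal component of 0.485 beside 15.7 to 25.4 in the others. Without Control replicate 1 the log2 fold changes of Etv1, Etv4 and Etv5 were -1.01, -0.50 and 0.04. Without Control replicate 4 they were -0.92, -0.48 and 0.08. A call needed an adjusted p below 0.005 and a log2 fold change beyond 0.25 in either direction. By that rule 455 genes (2.57% of those tested) were called between AD1 OE and Control, 316 of them (1.78%) lower and 139 (0.784%) higher in AD1 OE. DESeq2 called 3.83%, and 18.6% had an unadjusted p under 0.05 in edgeR.

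The 3 factors did not share one pattern in AD1 OE. Etv1 was 51.2% of its Control level, Etv4 70.6% and Etv5 105.4% on the CPM scale. Etv1 and Etv4 had no overlap between the groups, while Etv5 overlapped. Across all tested genes 13.0% had groups that did not overlap, and 7.26% had every AD1 OE library below. Since this contrast chose the members, these values are given as a description with no test. The call rule was met by Etv1 and Etv4, 2 of 3 members beside 2.57% of all tested genes, and no weight is placed on that count.

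Etv1 (ENSMUSG00000004151, chromosome 12), the factor of proprioceptive neurons, was read from 2136 to 6975 counts per library. In AD1 OE replicates 1 to 4 it stood at 93.2, 104.1, 81.7 and 91.2 CPM, and in Control replicates 1 to 4 at 162.9, 179.3, 184.2 and 197.0 CPM. Every AD1 OE library lay below every Control library, and the lowest Control value was well above the highest AD1 OE value. The means were 92.6 ± 9.20 CPM (SD, n = 4) and 180.9 ± 14.1 CPM (SD, n = 4), with a fitted log2 fold change of -0.97 ± 0.07 (SE). Ordered by log2 fold change, Etv1 was number 145 of 17721 tested genes counted from the most negative. The spread between libraries was larger than counting error, at a coefficient of variation of 9.94% in AD1 OE and 7.79% in Control against 2.16% for the library with the fewest Etv1 reads. From RNA of whole ganglia alone, fewer cells of a type and less RNA per cell cannot be told apart.

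Etv4 (ENSMUSG00000017724, chromosome 11), the founding member of the subfamily, had the fewest reads of the members, 362 to 953 counts per library. It measured 18.8, 16.1, 21.4 and 17.0 CPM in AD1 OE replicates 1 to 4 and 25.8, 23.1, 28.0 and 26.9 CPM in the Control replicates. The groups did not overlap but came close, since AD1 OE replicate 3 and Control replicate 2 were less than 2 CPM apart. The means were 18.3 ± 2.32 and 26.0 ± 2.13 CPM (SD, n = 4 each), with a log2 fold change of -0.50 ± 0.09 (SE). Counting error reached 5.26% at the lowest count, against a coefficient of variation of 12.6% in AD1 OE and 8.22% in Control. The value kept its sign in each of 14 alternative settings, between -0.57 and -0.44 with 1 library left out, but the call rule was met in only 5 of the 14. It was no longer met with library totals in place of composition scaling, with a sex term, or without any 1 library other than AD1 OE replicate 3. Without AD1 OE replicate 2, for example, the log2 fold change was -0.44, and without Control replicate 3 it was -0.46.

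Etv5 (ENSMUSG00000013089, chromosome 16), known from both neurons and satellite glia, was read from 1077 to 2450 counts. It measured 55.4, 56.2, 56.3 and 55.4 CPM in AD1 OE replicates 1 to 4 and 48.5, 56.0, 54.1 and 53.4 CPM in the Control replicates. The groups overlapped, and only Control replicate 1 stood below 50 CPM. The means were 55.9 ± 0.504 and 53.0 ± 3.20 CPM (SD, n = 4 each), with a log2 fold change of 0.07 ± 0.05 (SE). The AD1 OE libraries lay close together, with a coefficient of variation of 0.902% against counting errors of 2.02% to 2.82%. Of 12516 tested genes averaging at least 5 CPM, 76 (0.607%) varied as little or less in AD1 OE, where the median gene varied by 5.45%.

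**Figure D1:**
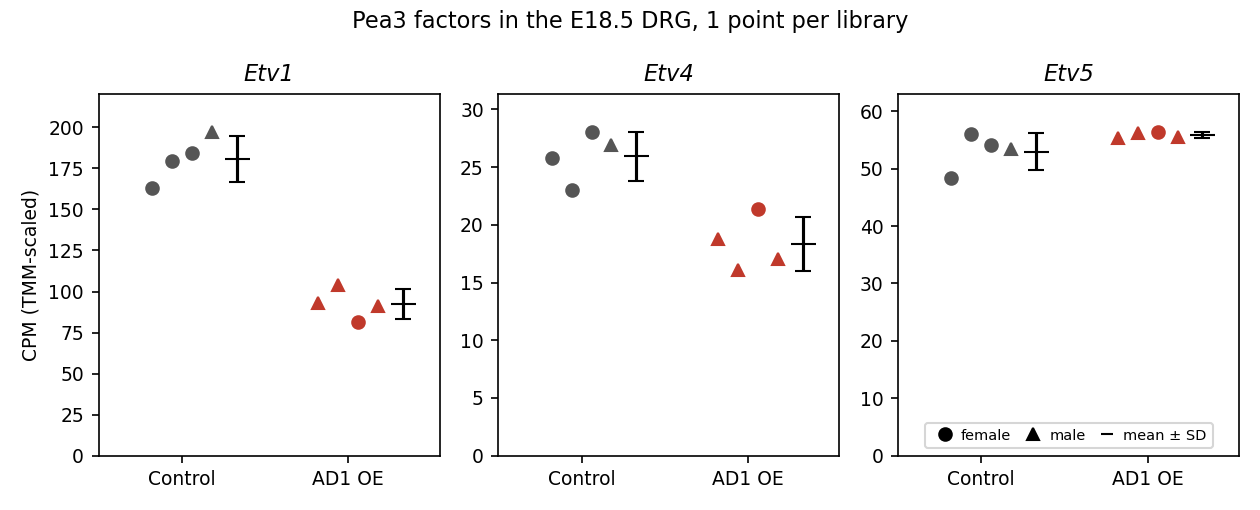
Level of Etv1, Etv4 and Etv5 in CPM (y axis, from 0, its scale set for each gene) in Control and AD1 OE, with 1 point per library, circles for female and triangles for male libraries, and the mean ± SD (n = 4) beside each group. The 4 AD1 OE points of Etv1 lie between 81.7 and 104.1 CPM, all below the Control points at 162.9 to 197.0 CPM, while the Etv5 points of the groups overlap.

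Sums, ratios and shares of the 3 genes restate the contrast that chose the members, so they are descriptions and not further results. The summed CPM of the 3 genes ranged from 159.4 to 176.5 in AD1 OE and from 237.2 to 277.3 in Control, or 64.2% of the Control mean. The ratio of Etv1 to Etv5 reads, which needs no scaling between libraries, was 1.68, 1.85, 1.45 and 1.65 in AD1 OE replicates 1 to 4 and 3.36, 3.20, 3.41 and 3.69 in the Control replicates. Every AD1 OE ratio lay below every Control ratio, with means of 1.66 ± 0.165 and 3.42 ± 0.202 (SD, n = 4). The ratio of Etv4 to Etv5 was 0.328 ± 0.0405 in AD1 OE and 0.492 ± 0.0546 in Control, again without overlap. The ratio of Etv4 to Etv1 ran the other way, at 0.201 ± 0.0448 against 0.144 ± 0.0138, with overlap between AD1 OE replicate 2 at 0.155 and Control replicate 1 at 0.159.

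Levels of different genes were compared per length, as CPM per kb of exon (the union of a gene's annotated exons). On this scale Etv1 was the highest Pea3 factor in Control at 13.6 ± 1.06 CPM per kb (SD, n = 4), beside Etv5 at 12.9 ± 0.780 and Etv4 at 8.36 ± 0.687. Etv1 and Etv5 did not differ beyond their spread in Control. In AD1 OE the order became Etv5 at 13.6 ± 0.123, Etv1 at 6.96 ± 0.692 and Etv4 at 5.91 ± 0.746 CPM per kb, with the ranges of Etv1 and Etv4 overlapping. Etv5 thus made up 51.4 ± 0.606% of the Pea3 level per length in AD1 OE and 37.0 ± 1.68% in Control, and Etv1 26.3 ± 2.60% and 39.0 ± 1.18%. The Etv4 shares overlapped, at 22.3 ± 2.67% and 24.0 ± 1.85%. Etv1 has 13.3 kb of annotated exon but a longest transcript of 6.58 kb, and when levels were divided by the longest transcript Etv1 was 53.2% of the Control sum and, like Etv5, 39.3% of the AD1 OE sum.

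Among the 26 ETS genes that were listed, the Pea3 factors were near the top in the ganglion. In Control, Erf, an ERK-regulated ETS repressor, came first at 15.1 ± 0.716 CPM per kb of exon, followed by Etv1, Etv5, the GA-binding protein subunit Gabpa at 9.48 ± 0.320, Etv4, and Ets2 at 7.03 ± 0.421. The spreads (mean ± SD) of Erf and Etv1 and of Etv1 and Etv5 overlapped, so these neighbours did not differ beyond their spread, while those of Etv5, Gabpa, Etv4 and Ets2 did not overlap one another. This order rests on the exon union: divided by the longest transcript and averaged over the 8 libraries, Etv1 came first at 20.8, Erf was number 2 at 15.9, Etv5 number 3 and Etv4 number 8. In AD1 OE, by the exon union, Etv1 was number 4 and Etv4 number 6. The Pea3 factors together made up 32.1 ± 1.43% of the ETS level per length in Control and 26.0 ± 0.194% in AD1 OE. Of the 23 other ETS genes, 18 were tested and none was called by edgeR or by DESeq2, while 3 had an unadjusted p under 0.05. Their median log2 fold change was 0.06, beside 0.002 over all tested genes. Groups did not overlap for 4 of the 18, beside 13.0% of all genes, with Etv6, Elf1 and Elf4 above Control in every AD1 OE library (log2 fold changes of 0.12, 0.17 and 0.09). Ets1, a widely expressed founding ETS factor, was the only one of the 18 with every AD1 OE library below Control, at 43.6 ± 1.61 against 50.9 ± 2.55 CPM (log2 fold change -0.22 ± 0.05 SE, edgeR adjusted p = 0.0169), and these 4 were named after their values were seen.

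**Figure D2:**
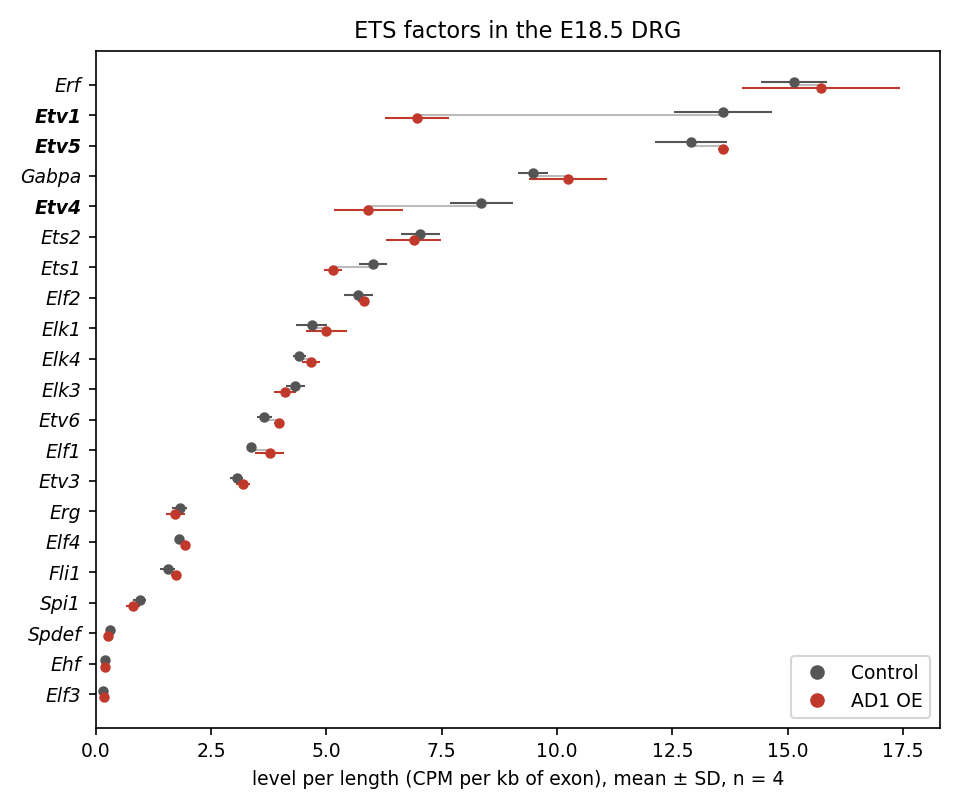
Level per length (x axis, CPM per kb of exon) of the ETS genes with at least 0.1 CPM per kb in Control, as mean ± SD over 4 libraries, with Control in grey and AD1 OE in red and the Pea3 factors in bold. Etv1 lies at 13.6 in Control and 6.96 in AD1 OE and Etv4 at 8.36 and 5.91 CPM per kb, while Etv5 (12.9 and 13.6) and Erf (15.1 and 15.7) lie close in both groups.

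Sex was not used to choose the members, so it could be tested. With genotype in the fit, Etv1 differed by 0.20 ± 0.06 (log2, male minus female, SE) and was not called (edgeR quasi-likelihood test, adjusted p = 0.512, unadjusted 0.00703). Etv4 differed by -0.10 ± 0.10 (adjusted p = 0.872) and Etv5 by -0.002 ± 0.06 (adjusted p = 0.999). Over all genes 12 (0.0677%) were called between the sexes and 6.68% had an unadjusted p under 0.05. Because AD1 OE was mostly male and Control mostly female, the members were also compared within a sex, where 1 group always had 1 library. The only AD1 OE female was replicate 3, which stood apart from its group, and the only Control male was replicate 4. Among females, Etv1 was 81.7 in AD1 OE and 162.9 to 184.2 CPM in Control, and among males it was 91.2 to 104.1 in AD1 OE and 197.0 CPM in Control. AD1 OE was thus 46.6% of Control among females and 48.8% among males. For Etv4 these shares were 83.4% among females and 64.3% among males, and for Etv5 they were 107% and 104%. With a sex term in the fit the log2 fold changes between genotypes were -1.07 for Etv1, -0.45 for Etv4 and 0.08 for Etv5.

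Etv1 was next set against markers of neuron classes. The Etv1 difference chose the members, so its separation between groups relative to markers is a description. Of 10 markers of proprioceptors, the class best known for Etv1, none was called by edgeR (3 by DESeq2, 5 at an unadjusted p under 0.05), the median log2 fold change was -0.08, and the summed level was 690.6 to 804.5 in AD1 OE and 623.7 to 740.8 CPM in Control. Pvalb, a calcium buffer that defines mature proprioceptors, was 63.1 ± 7.13 against 66.6 ± 3.43 CPM (log2 fold change -0.08 ± 0.07 SE, edgeR adjusted p = 0.626). Runx3, the factor that specifies these neurons, was 11.9 ± 0.538 against 12.4 ± 1.16 CPM (-0.07 ± 0.08, edgeR adjusted p = 0.664). Ntrk3, the NT3 receptor gene, was above Control in every AD1 OE library, at 343.3 ± 31.0 against 278.4 ± 17.0 CPM (0.30 ± 0.07, edgeR adjusted p = 0.0171). Whrn, a stereocilia scaffold gene, was at 21.2 ± 1.15 against 26.1 ± 0.865 CPM (-0.31 ± 0.06, adjusted p = 0.00557), and Cntnap2, a neurexin family adhesion gene, at 136.0 ± 9.49 against 167.0 ± 11.4 CPM (-0.30 ± 0.06, adjusted p = 0.00796). Esrrg was at 12.9 ± 1.37 against 15.75 ± 0.870 CPM (-0.29 ± 0.08, edgeR adjusted p = 0.0566). These 3 had every AD1 OE library below Control and Ntrk3 alone had every one above, beside 13.0% of all tested genes without overlap. Within the summed level, Spp1 ranged from 13.0 to 121.7 CPM in AD1 OE and from 15.2 to 82.2 CPM in Control. Per 1000 CPM of proprioceptor markers, Etv1 was 126.6 ± 13.9 in AD1 OE and 264.4 ± 4.21 CPM in Control, or 47.9%, without overlap between groups. Ntrk3 held 46.9% of that sum in AD1 OE and 40.8% in Control, and with Ntrk3 left out, a choice made after the values were seen, Etv1 was at 54.0% of Control.

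Of 12 nociceptor markers, 6 were called lower (Scn10a, Calca, Tac1, Mrgprd, Trpm8 and Oprk1) and none higher, with summed levels of 3114 to 3345 in AD1 OE and 3757 to 4153 CPM in Control. The study named 5 of these genes from the same libraries (Scn10a, Calca, Mrgprd, Trpm8 and Oprk1), and Scn10a alone held 35.1% of the Control sum, so the count and the sum are not independent of the data. Per 1000 CPM of these markers, Etv1 was 28.9 ± 3.28 in AD1 OE and 45.7 ± 3.12 CPM in Control, or 63.2%, again without overlap. Against the 7 markers that the study did not name, of which Tac1 was called, Etv1 was 44.6 ± 5.21 in AD1 OE and 91.3 ± 6.68 in Control, or 48.9%. Per 1000 CPM of pan-neuronal markers, none of 10 called by edgeR or DESeq2 and 2 at an unadjusted p under 0.05, Etv1 was at 52.8% of Control. Per 1000 CPM of 8 markers of TrkB low-threshold mechanoreceptors (LTMRs), Etv1 was at 48.2% of Control. Of these markers Mafa and Shox2 were called lower and Mef2c higher, beside 2.57% of all tested genes called. The study named Mafa and Mef2c from the same libraries, so those calls are not independent of the data. Etv5 per 1000 CPM of glial markers was 21.8 ± 0.952 and 20.1 ± 2.49, with overlap. In immunostained E18.5 sections the study found Islet1, Prdm12, TrkB and TrkC neurons of AD1 OE in appropriate numbers. By staining or in situ hybridization it also found Th and Mef2C raised, and CGRP (from Calca), MafA, TrpM8 and Cdh3 lowered. The part that a change in cell makeup has in the Etv1 and Etv4 levels was not tested here.

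**Figure D3:**
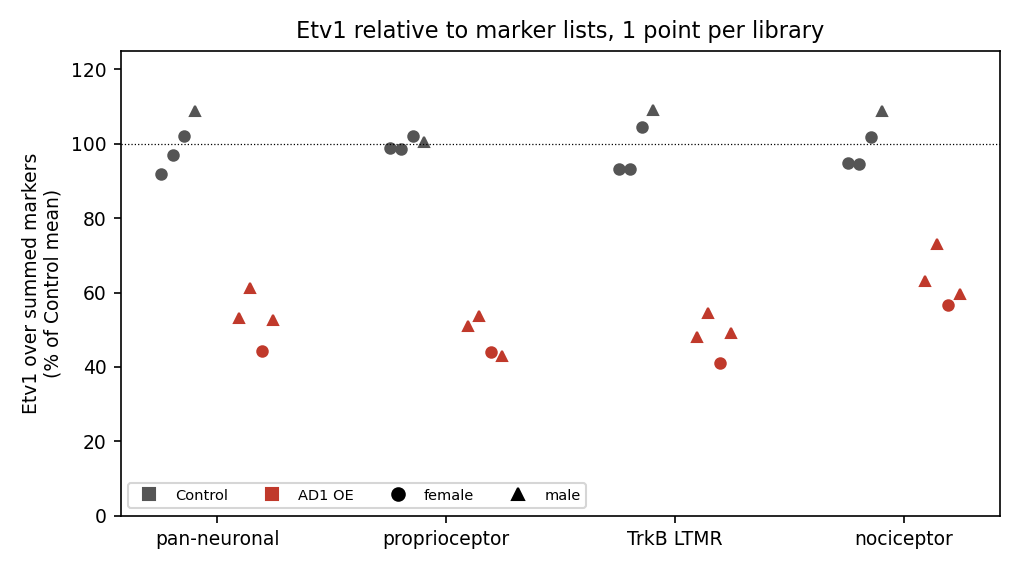
Etv1 divided by the summed CPM of 4 marker lists (x axis), as a percentage of the Control mean (y axis, dotted line at 100), with 1 point per library, circles female and triangles male. Every AD1 OE point lies below every Control point for each list, and the AD1 OE means are 52.8% (pan-neuronal), 47.9% (proprioceptor), 48.2% (TrkB LTMR) and 63.2% (nociceptor, 48.9% against the markers that the study did not name) of Control. The Etv1 difference chose the members, so this separation is a description.

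Markers of other tissue gave no called gene by edgeR or DESeq2. The 12 glial markers, including Sox10, summed to 2479 to 2746 in AD1 OE and 2526 to 2936 CPM in Control, with 3 at an unadjusted p under 0.05. Skeletal muscle markers ranged from 105.4 to 514.1 CPM in AD1 OE and from 127.8 to 356.8 CPM in Control, with 0 of 7 at an unadjusted p under 0.05. Spinal cord markers summed to 7.31 to 10.2 in AD1 OE and 6.04 to 25.1 CPM in Control, with a median log2 fold change of -1.23 and 2 of 7 at an unadjusted p under 0.05. The motor neuron gene Mnx1 was at 0 in 6 of 8 libraries and at most 0.18 CPM, and Chat, which makes acetylcholine in motor neurons, at most 0.45 CPM. The lists of vessel, fibroblast and macrophage markers had 1 of 8, 4 of 6 and 2 of 7 genes at an unadjusted p under 0.05, beside 18.6% of all tested genes. Fibroblast markers had a median log2 fold change of 0.167, with Dcn and Lum negative and the other genes positive. They summed to 5777 to 6542 in AD1 OE and 4947 to 6065 CPM in Control, with overlap.

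Transcripts for signals that induce Pea3 genes, and for the factors' ETS relatives, regulators and linked genes, were read in the ganglia. They made up 7 lists of 128 genes, of which 119 were tested. Of these, 2 were called lower and 2 higher, or 3.36% beside 2.57% of all genes, and the median log2 fold change was -0.02. The called genes were the ligands Hgf and Ntf3, the receptor Gfra2 and the Pea3-linked gene Th.

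Ligand transcripts were read in the ganglia only, and ligands made in target tissue, such as muscle-derived NT3, were not measured. Among 16 tested ligands, Ntf3, which encodes the neurotrophin NT3, was higher in AD1 OE ganglia. It measured 16.7, 18.4, 18.3 and 17.1 CPM in AD1 OE replicates 1 to 4 and 10.8, 9.97, 9.55 and 13.9 CPM in the Control replicates, with no overlap and a log2 fold change of 0.67 ± 0.11 (SE, edgeR adjusted p = 0.00225). The Ntf3 call was lost with a sex term (0.58, adjusted p = 0.00654) and on leaving out any 1 library except Control replicate 4, with adjusted p up to 0.0108. Hgf, the ligand of the Met receptor and a survival factor for sensory neurons, was 3.32, 3.21, 2.56 and 3.20 in AD1 OE and 8.15, 9.38, 10.7 and 9.12 CPM in Control, with a log2 fold change of -1.59 ± 0.11 (SE, edgeR adjusted p = 4.69e-06). Hgf shares 6.74% of its exon length with a predicted gene on the same strand. Met itself was 12.2 ± 0.460 against 12.6 ± 2.61 CPM (-0.04 ± 0.12, edgeR adjusted p = 0.893).

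Of 20 tested receptors, Gfra2, the neurturin coreceptor that pairs with Ret in nociceptors, was the only one called, at 60.5 ± 6.57 against 90.8 ± 4.87 CPM (log2 fold change -0.58 ± 0.07 SE, edgeR adjusted p = 2.30e-04). Ntrk3, Ntrk2 and Ngfr, receptors of neurotrophins, were not called. Ntrk3, with the values given above, was called under DESeq2. Ntrk2, the BDNF receptor, had a log2 fold change of 0.12 ± 0.05 (edgeR adjusted p = 0.189) and Ngfr, the shared neurotrophin receptor, of 0.20 ± 0.05 (0.0542). Ret, the signalling receptor of the GDNF family, had -0.12 ± 0.05 (0.199) and Fgfr1, an FGF receptor, 0.11 ± 0.04 (0.191).

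Downstream, neither the cascade nor its transcriptional readouts gave a called gene. Of 28 genes of the Ras-ERK cascade none was called by edgeR or DESeq2, and the median log2 fold change was 0.01. An unadjusted p under 0.05 was met by 7 of them, beside 18.6% of all tested genes. Mapk3, a kinase of the cascade, had a log2 fold change of 0.05 ± 0.04 (edgeR adjusted p = 0.536). Rasa1 had 0.18 ± 0.04 (edgeR adjusted p = 0.0102) and Hras -0.18 ± 0.05 (0.0414). Of 20 feedback and early response genes of ERK signalling none was called by edgeR or DESeq2 and 5 had an unadjusted p under 0.05, with a median of -0.02. Dusp6, an ERK phosphatase induced along with Pea3 genes by FGF, was 45.7 ± 2.23 against 49.6 ± 2.96 CPM (-0.12 ± 0.05, edgeR adjusted p = 0.270), and the feedback inhibitors Spry2 and Spry4 had -0.11 ± 0.05 (0.243) and -0.09 ± 0.05 (0.350). Spred1, an inhibitor of Raf activation, had 0.11 ± 0.03 (0.0884). Fos, an immediate early gene, was 4.81 ± 0.580 against 3.41 ± 0.298 CPM (0.49 ± 0.12, edgeR adjusted p = 0.0302), while Phlda1 had -0.23 ± 0.06 (0.0340). These readouts concern transcripts and do not show the activity of the kinases.

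Of the 7 regulators of Pea3 genes and proteins none was called by edgeR or DESeq2 and 3 had an unadjusted p under 0.05. Cic, the repressor of all 3 members, was 268.6, 239.4, 271.9 and 269.7 in AD1 OE and 224.0, 239.8, 235.0 and 245.8 CPM in Control (log2 fold change 0.15 ± 0.05 SE, edgeR adjusted p = 0.0975). Only AD1 OE replicate 2 overlapped the Control range. Trib2, an adaptor of the Cop1 ligase, was 193.8 ± 4.49 against 207.3 ± 6.62 CPM (-0.10 ± 0.03, edgeR adjusted p = 0.147).

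Of 10 genes linked to Pea3 factors in other neurons, Th was called, and Th is among the genes the study named from these libraries. Th, the tyrosine hydroxylase gene that Etv1 controls in olfactory bulb interneurons and that marks C-LTMRs in the DRG, was 66.6, 58.9, 65.7 and 63.9 in AD1 OE and 24.6, 22.6, 18.8 and 18.8 CPM in Control, with a log2 fold change of 1.60 ± 0.08 (SE, edgeR adjusted p = 6.09e-07). The list's median was -0.18. Sema3e and Cdh8, guidance and adhesion genes that depend on Etv4 in motor pools, were not called by edgeR and were called by DESeq2. Sema3e was 28.9 ± 3.26 against 21.9 ± 1.08 CPM (0.40 ± 0.08, edgeR adjusted p = 0.00781) and Cdh8 was 43.6 ± 0.575 against 54.8 ± 5.01 CPM (-0.33 ± 0.06, adjusted p = 0.00557).

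**Figure D4:**
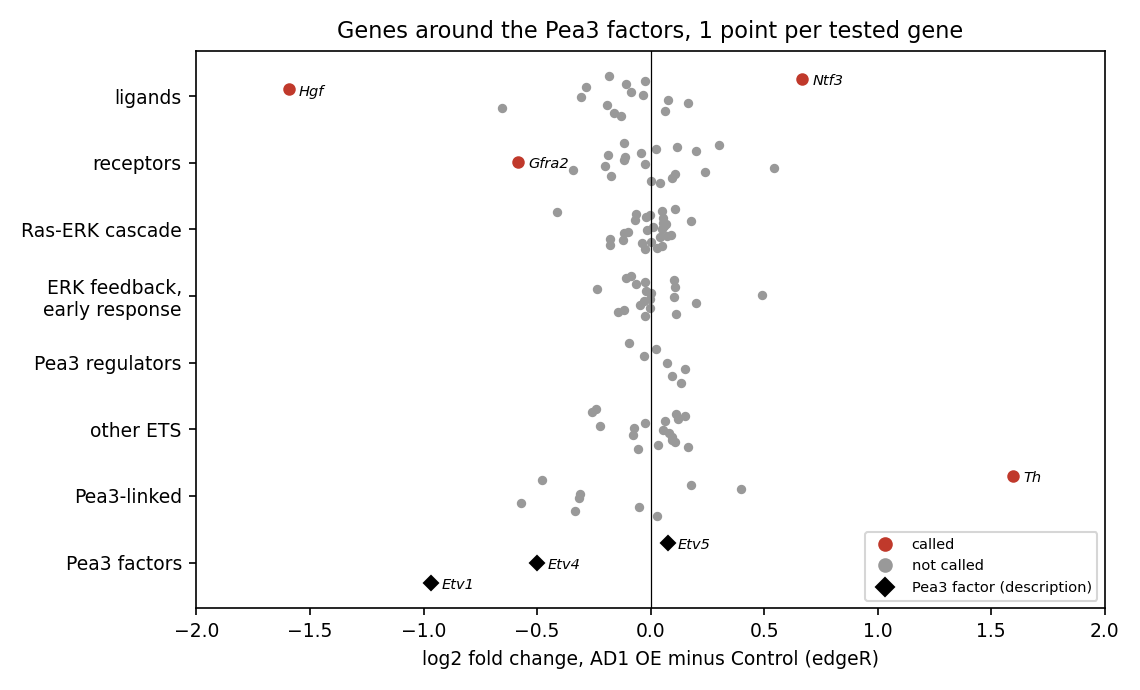
Fitted log2 fold change (x axis, AD1 OE minus Control) of each tested gene in 7 lists around the Pea3 factors (rows, points spread vertically for display), with called genes in red and labelled, others in grey, and the 3 Pea3 factors as black diamonds without a test. Most points lie near 0, with Hgf at -1.59, Gfra2 at -0.58, Ntf3 at 0.67 and Th at 1.60.

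Over the 8 libraries, log2 CPM of Etv1 and Etv4 had a Pearson r of 0.81, which became -0.48 once the group means were removed. Etv1 and Etv5 had r = -0.49 and 0.41 after removal, and Etv4 and Etv5 -0.56 and -0.12. The points share their libraries and scaling, and these values are descriptions.

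Likeness was read over 12032 of these genes, leaving out those without a symbol or with a clone-based one. Those most like Etv1 over the 8 libraries were Kcnip2 (r = 0.99), a subunit of A-type potassium channels, Edil3 (r = 0.99), an integrin ligand, the cadherin Cdh18 (r = 0.99), the glutamate receptor auxiliary gene Neto1 (r = 0.99) and the membrane trafficking gene Mal2 (r = 0.99). All 5 were called lower, with Kcnip2 at 19.7 ± 1.60 against 30.2 ± 1.69 CPM and Mal2 at 13.6 ± 2.03 against 47.8 ± 3.82 CPM. A gene with a group difference of the same sign ranks high by this measure. With group means removed, the genes most like Etv1 were Zfyve16, the cadherin Cdh12 and Serinc5 (r = 0.98 each), and none of them was called. Those most like Etv4 were Pdlim5, Col5a3, Asb6, Rgs14 and Dusp10 (r from 0.96 to 0.98), of which Col5a3, a collagen gene, was called, at 89.2 ± 10.2 against 119.3 ± 5.79 CPM (log2 fold change -0.42 ± 0.07 SE, edgeR adjusted p = 0.00254). Those most like Etv5 were Lactb, the kainate receptor gene Grik4, Tnpo3, Spata13 and Usp7 (r from 0.95 to 0.96), and none was called.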

How the data were processed

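RNA of dorsal root ganglia from E18.5 embryos was made into stranded poly(A) libraries and sequenced (8 libraries, 4 per group). The authors demultiplexed reads with bcl2fastq 2.20.0.422, aligned them to GRCm39 with STAR 2.7.8a and counted them with featureCounts 2.0.1, and deposited raw counts per Ensembl gene and library. Whether counting used the strand is not given in the sources used here. Replicates differed by more than sampling noise (chi-square per degree of freedom 4.34 to 12.2). Pairs with AD1 OE replicate 3 gave 10.6 to 12.2 and pairs with Control replicate 1 gave 9.02 to 10.9. Groups came from the titles and genotypes in the labels.

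The members, the lists of genes around them and the rules for naming genes were chosen with earlier results of these data known. Symbols and exon lengths came from GENCODE M21 on GRCm38 (52081 of 55414 IDs had a symbol, and 222 of 223 list genes an ID), so no gene coordinates are given. Promoter windows came from RefSeq on GRCm38.p6. In R 4.3.3, edgeR 4.0.16 (filterByExpr on group, TMM, genotype as the only term, quasi-likelihood F test, Benjamini-Hochberg) was fitted over 17721 genes, with calls at the study's own limits for this comparison (adjusted p below 0.005, log2 fold change beyond 0.25 in size). The common biological coefficient of variation was 8.22%. DESeq2 1.42.0, other scalings, no filter, a sex term, a replicate block and leaving out each library were alternatives. Sex was read from Xist and 4 Y-linked genes. CPM values are TMM-scaled, and counting errors cover counting only, since reads carried no molecular identifiers. Named genes were the members, the 5 genes most like each by Pearson r of log2 CPM (prior count 2) with at least 5 CPM, the 3 most like after group means were removed, per list every called gene and, where none or 1 was called, the 2 of highest mean CPM not called, Dach1 and Avil, and the 5 ETS genes of highest level per length. Other genes named in the text were chosen after their values were seen. The scripts were tested on simulated data. Some genes of the lists are not reported here by name.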

Additional observations from a re-analysis of the deposited data

Results flagged for a closer look

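In groups of 4 libraries, the highest or lowest library was picked out by Dixon's test, which sets its gap to the nearest other library against the group's range (95% critical value). This held for 7 of 86 groups over 43 genes, and chance gives about 1 in 20 for independent groups. Some of the 43 genes were named for likeness to a member, so the groups are not independent. Neither Etv1 nor Etv4 nor Etv5 was among the 7. Among genes around the members, Cic was 239.4 CPM in AD1 OE replicate 2 (others 268.6 to 271.9), Hgf was 2.56 CPM in AD1 OE replicate 3 (others 3.20 to 3.32), Ccnd1 was 118.3 CPM in Control replicate 1 (others 81.1 to 86.7) and Trib2 was 217.1 CPM in Control replicate 2 (others 203 to 204.9). Among genes like a member, Grik4 was 51.3 CPM in Control replicate 1 (others 56.9 to 57.9), Lactb was 15.3 CPM in AD1 OE replicate 3 (others 14.1 to 14.2) and Plscr3 was 80.6 CPM in Control replicate 2 (others 84.6 to 85.4). Control replicate 1, low for Grik4, was also the library lowest for Etv5, at 48.5 CPM. Grik4 was named for its likeness to Etv5 over these libraries, so the match follows from that choice.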

How the results depend on the processing

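No result changed direction under any alternative run. Etv1 kept a log2 fold change between -1.07 and -0.91 in 14 alternatives. Relative to summed markers, a scaling added after the data were seen, it was -1.06 (proprioceptor, -0.89 without Ntrk3), -0.92 (pan-neuronal) and -0.66 (nociceptor, -1.03 with only the markers that the study did not name). Etv5 stayed between 0.04 and 0.10 with 1 library left out and was never called. Etv1, Etv4 and Etv5 with a replicate block were at -0.97, -0.51 and 0.08, and that block gave 348 called genes, 5 in the lists around the members and 8 between the sexes. Deviations of same-numbered libraries had r from -0.0541 to -0.00991 for numbers 1 to 3 and 0.313 for number 4. Both libraries of number 4 were male, and both of number 3, with r = -0.035, were female. Not every pair deviated together, so the numbers were not taken as pairs. The count of 455 called genes became 747 with no expression filter, 658 under DESeq2, 362 with a sex term, and 289 to 420 with 1 library left out, the lowest without AD1 OE replicate 1. The 4 called genes of the lists became 7 under DESeq2 and with no filter (Cdh8, Ntrk3 and Sema3e joined them) and 3 to 5 with 1 library left out. The 12 genes called between the sexes became 225 with no filter and 6 to 35 with 1 library left out, the extremes without AD1 OE replicate 2 and without Control replicate 3, and 26 without Control replicate 4. The cause of these shifts was not tested. By the longest transcript, chosen after the data were seen, the Control level of Etv1 was 27.5 in place of 13.6 CPM per kb and that of Etv4 10.8 in place of 8.36. With 4 libraries per group and few males in Control, the sex term rests on 1 male Control and 1 female AD1 OE library.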
